A study of Homo sapiens with 40 samples.

Results

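The comparison described here is that of U2OS cells on day 3 after transfection with small interfering RNA (siRNA) against CASP8AP2 with U2OS cells given control siRNA. It rests on 4 of the 40 arrays of the study, 2 per siRNA, chosen by their labels for cell line, siRNA and day. All 22069 genes measured on each array entered the comparison. U2OS is an established human osteosarcoma line, and the other line of the study, hTERT-RPE1, derives from normal retinal pigment epithelium and is kept dividing by telomerase. Cells of both lines were transfected in suspension with pooled siRNAs at 15 nM, and the control was a commercial negative control siRNA (AllStars). CASP8AP2 and control siRNA were followed on days 1, 2 and 3, and cells given siRNA against NPAT or HINFP were profiled on day 3 only. The day 3 duplicates of a group were transfected at the same time. Every day 3 p-value thus measures the spread between such arrays and not between separate experiments. The paper's methods do not say how the triplicates of days 1 and 2 were made. An siRNA pool lowers a transcript without removing it, and the protein was not measured on these arrays.

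CASP8AP2, also called FLASH, is a large nuclear protein of the histone locus body, where replication-dependent histone genes are transcribed and the ends of their mRNAs are cut. NPAT, a coactivator and substrate of cyclin E and CDK2, and HINFP, a zinc finger factor that binds histone H4 promoters, serve the same genes. Histones are made while DNA is copied, and cells that run short of them are known to slow in S phase. The study asked how tumor and normal cells differ in their response when this supply is disturbed.

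Values are log2 expression values as deposited, so a difference of 1 is a doubling of the signal, and they lay between 2.35 and 13.31 on the 4 arrays. Replicates correlated across genes with r = 0.997 for control siRNA and 0.995 for CASP8AP2 siRNA, and no pair of the 40 arrays held identical values. Genes counted as called had an adjusted p below 0.05 in limma, with Benjamini-Hochberg adjustment over all 22069 genes and a spread shared by the 16 day 3 arrays. Adjusted p-values for days 1 and 2 come from a like fit to the 24 arrays of those days. The array means lay between 5.87 and 5.88, so a change in total RNA cannot be seen and fold changes are relative to the bulk of genes. A symbol was at hand for 1923 genes (8.71%), and the other genes were tested without a name.

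The targeted transcript was examined before the others. CASP8AP2 (ENSG00000118412) read 6.80 and 6.82 on the control arrays and 5.54 and 5.73 on the CASP8AP2 siRNA arrays. Both siRNA arrays lay more than 1 log2 unit below both controls. The log2 fold change was -1.18 (SE 0.11, n = 2 per group, adjusted p = 2.15e-05), which left 44.3% of the transcript. The partner transcripts NPAT and HINFP had log2 fold changes of -0.09 (adjusted p = 0.626) and 0.07 (adjusted p = 0.796), and neither was called.

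The label of the cells was set against marker genes. Of the 5 osteoblast and mesenchymal markers with a symbol, FN1 (fibronectin), CDH2 (N-cadherin) and RUNX2 (the osteoblast transcription factor) stood at 10.79 to 11.09, 8.82 to 9.30 and 7.63 to 8.04 on the 4 arrays. COL1A2 (a type I collagen chain) and IBSP (bone sialoprotein) stood low, at 3.98 to 4.35 and 3.45 to 3.87. None of these 5 differed between the siRNAs by the test. The pigment epithelium markers RLBP1 and BEST1 stood at 3.49 to 3.69 and 3.89 to 4.20, near the bottom of the range. No epithelial marker of the list carried a symbol, so that list was not analysed here.

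A total of 4165 genes were called (18.9% of 22069), of which 1746 were higher (7.91%) and 2419 lower (11.0%) with CASP8AP2 siRNA. When each array was centred on its median the split moved to 1363 higher and 2963 lower. Most called changes were small, with a median log2 fold change of 0.50 among the higher and -0.50 among the lower genes. Only 338 called genes (1.53%) moved by at least 1 log2 unit, 197 up and 141 down. The 197 large rises started from a median control level of 5.04, and 95 of them stood under 5 before the change. The 141 large falls started from a median of 7.28, and 4 of them stood under 5. In 30.0% of all genes both CASP8AP2 siRNA arrays lay above both controls and in 28.1% below, called or not. All 1746 higher and all 2419 lower called genes are among these, so such separation says nothing further about a called gene. Over all genes the median control level was 5.32 and 46.7% of genes stood under 5.

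The pair of CASP8AP2 siRNA arrays did not move equally far. Replicate 1 lay further from the control mean than replicate 2 in 1966 of the 2419 lower genes (81.3%) and in 1148 of the 1746 higher genes (65.8%). The median distance from the control mean in the lower genes was -0.58 for replicate 1 and -0.43 for replicate 2, and in the higher genes 0.55 and 0.47. Without CASP8AP2 siRNA replicate 1, 1792 genes were called, and without replicate 2, 4165. Without control replicate 1 or 2 there were 2227 and 2451. Among the genes with a symbol, 465 of 1923 were called (24.2%), 204 higher (10.6%) and 261 lower (13.6%), and these shares are the background for the gene groups below.

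Cyclin A1, a cyclin mostly found in the germline and in some tumors, rose more than any other gene with a symbol. CCNA1 (ENSG00000133101) read 4.28 and 4.00 with control siRNA and 6.94 and 7.39 with CASP8AP2 siRNA. The siRNA arrays stood far above controls that were near the bottom of the range. The log2 fold change was 3.02 (SE 0.19, n = 2 per group, adjusted p = 5.83e-07), an 8.13-fold rise of the signal.

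A Wnt antagonist and a pair of Notch ligands were also among the 10 largest rises. DKK1 (ENSG00000107984), a secreted inhibitor of Wnt receptors, went from 4.73 and 4.72 to 6.83 and 7.04. DLL4 (ENSG00000128917), a Notch ligand best known from blood vessel sprouting, went from 3.58 and 3.63 to 5.31 and 5.50. JAG1 (ENSG00000101384), another Notch ligand, went from 7.55 and 7.48 to 8.89 and 8.81. In each of these genes both siRNA arrays lay more than 1 log2 unit above both controls, and JAG1 alone among them began at a middling level. Their log2 fold changes were 2.21 (SE 0.10, adjusted p = 5.31e-08), 1.80 (SE 0.19, adjusted p = 5.49e-05) and 1.34 (SE 0.12, adjusted p = 1.92e-05). The signal of DKK1 rose 4.62-fold.

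Growth factors of blood vessels were also among them. ANGPT2 (ENSG00000091879), a ligand of the TIE2 receptor, went from 3.75 and 3.60 to 5.13 and 5.30, a log2 fold change of 1.54 (SE 0.15, adjusted p = 2.79e-05). PGF (ENSG00000119630), placental growth factor of the VEGF family, went from 5.27 and 5.44 to 6.62 and 6.83, a log2 fold change of 1.37 (SE 0.12, adjusted p = 1.46e-05). The control arrays of ANGPT2 were close to the floor of the scale, those of PGF somewhat higher. SLC12A8 (ENSG00000221955), a solute carrier of the cation-chloride cotransporter family, went from 5.53 and 5.47 to 7.44 and 7.28, by 1.85 (SE 0.12, adjusted p = 5.83e-07). ZNF280A (ENSG00000169548), a zinc finger protein, went from 5.65 and 5.48 to 6.79 and 7.26, by 1.46 (SE 0.16, adjusted p = 7.17e-05). SPINK1 (ENSG00000164266), a trypsin inhibitor, went from 4.47 and 4.17 to 5.48 and 5.75, by 1.30 (SE 0.13, adjusted p = 4.08e-05). IL13RA2 (ENSG00000123496), a receptor that binds interleukin 13, went from 5.98 and 5.54 to 7.11 and 7.00, by 1.30 (SE 0.15, adjusted p = 9.08e-05). All 10 genes kept their call when any 1 array was left out.

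**Figure D1:**
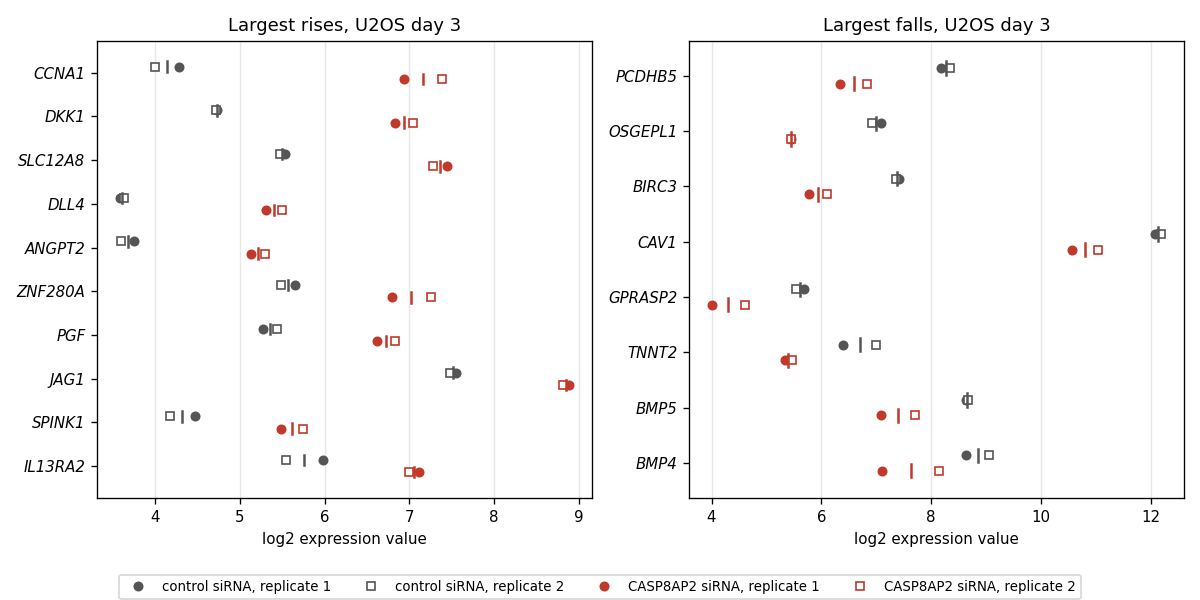
Log2 expression values (horizontal axes) of the 10 largest rises (left) and of the largest falls (right) among called genes with a symbol, in U2OS cells on day 3. Each point is 1 array and each short vertical line the mean of a group of 2. Genes were chosen so that both CASP8AP2 siRNA arrays lie on the same side of both control arrays.

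The largest rise of all belonged to a gene without a symbol. ENSG00000252421 read 4.42 and 4.15 with control siRNA and 10.45 and 10.06 with CASP8AP2 siRNA. It moved from the low end of the scale to its upper part, by 5.98 on the log2 scale (SE 0.17, adjusted p = 2.72e-10).

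Notch is a pathway in which ligands on 1 cell open receptors on the next, and the freed receptor switches on genes such as those of the HEY family. Of the 7 Notch pathway genes with a symbol, 4 were called higher and 1 lower, with a median log2 fold change of 0.35, beside 10.6% higher, 13.6% lower and a median of 0.01 over all genes with a symbol. The ligands DLL4 and JAG1 are described above. HEY1 (ENSG00000164683), a target gene of the pathway, went from 5.59 and 5.49 to 6.62 and 6.75. Its arrays did not overlap and the log2 fold change was 1.15 (SE 0.14, adjusted p = 0.000208). NOTCH2, a receptor, went from 9.93 and 9.99 to 10.38 and 10.24, by 0.35 (SE 0.10, adjusted p = 0.0290). NOTCH2 was the fifth called gene of this group, named after its value was seen. MAML2, a coactivator of the opened receptor, fell from 7.28 and 7.51 to 6.60 and 6.89, by 0.65 on the log2 scale (adjusted p = 0.00416). Without CASP8AP2 siRNA replicate 1 the log2 fold change of MAML2 was -0.51 and its call was lost (adjusted p = 0.0598). Without control replicate 1, control replicate 2 or CASP8AP2 siRNA replicate 1, 3 genes of this group were called higher. HES5, another target gene, and ADAM17, a protease that cuts the receptor, had log2 fold changes of 0.01 and -0.04.

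Of the 11 Wnt pathway regulators with a symbol, 3 were called higher and 1 lower, with a median log2 fold change of 0.02. Each of the 3 that rose is known as an inhibitor of the pathway. They were DKK1, NKD1 (ENSG00000140807), which binds Dishevelled inside the cell, and KREMEN2 (ENSG00000131650), a membrane receptor for DKK proteins. NKD1 went from 4.97 and 5.08 to 6.25 and 6.06, by 1.13 (SE 0.17, adjusted p = 0.000617). KREMEN2 went from 6.01 and 5.98 to 6.63 and 6.52, by 0.58 (SE 0.11, adjusted p = 0.00287). Neither gene's arrays overlapped. WNT5A, a ligand, went from 5.37 and 5.14 to 4.71 and 4.86, by -0.47 (adjusted p = 0.00809). The call of WNT5A was lost without control replicate 1 (log2 fold change -0.35, adjusted p = 0.0954) and without CASP8AP2 siRNA replicate 1 (-0.40, adjusted p = 0.0855). Other inhibitors did not pass the test, among them SOST with 0.44 (adjusted p = 0.0982) and SFRP1 with 0.02 (adjusted p = 0.951). CTNNB1, which encodes beta-catenin, stood at 11.01 and 11.07 with control siRNA and 10.75 and 10.92 with CASP8AP2 siRNA (adjusted p = 0.159).

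An adhesion gene and a gene of tRNA modification were among the largest falls. PCDHB5 (ENSG00000113209), an adhesion protein of the protocadherin beta cluster, went from 8.18 and 8.35 to 6.34 and 6.83, by -1.68 (SE 0.22, adjusted p = 0.000277). OSGEPL1 (ENSG00000128694), a mitochondrial enzyme of tRNA modification, went from 7.08 and 6.92 to 5.44 and 5.45, by -1.56 (SE 0.11, adjusted p = 2.01e-06). In both genes each siRNA array lay more than 1 log2 unit below each control, and in PCDHB5 replicate 1 lay clearly lower than replicate 2. PCDHB1, of the same protocadherin beta cluster, had -0.14 (adjusted p = 0.330) and was not called.

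BIRC3 (ENSG00000023445) encodes cIAP2, a ubiquitin ligase of tumor necrosis factor signalling and a target of NF-kB. It went from 7.41 and 7.36 to 5.77 and 6.10, by -1.45 (SE 0.16, adjusted p = 7.31e-05). CAV1 (ENSG00000105974), the main protein of caveolae, was among the most strongly expressed genes and went from 12.07 and 12.19 to 10.57 and 11.04, by -1.33 (SE 0.13, adjusted p = 2.60e-05). After the change CAV1 was still high on the scale with 39.8% of its signal left. GPRASP2 (ENSG00000158301), which binds G protein-coupled receptors, went from 5.68 and 5.54 to 4.00 and 4.60, by -1.31 (SE 0.25, adjusted p = 0.00271). TNNT2 (ENSG00000118194), cardiac troponin T, went from 6.39 and 7.00 to 5.33 and 5.46, by -1.30 (SE 0.20, adjusted p = 0.000757). Arrays that do not overlap were a condition for a place among these falls. The calls of these genes held when any 1 array was left out.

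A pair of bone morphogenetic proteins, secreted ligands of the TGF-beta family, were also among the falls. BMP5 (ENSG00000112175) went from 8.64 and 8.67 to 7.08 and 7.70, by -1.26 (SE 0.23, adjusted p = 0.00258). BMP4 (ENSG00000125378) went from 8.64 and 9.06 to 7.10 and 8.15, by -1.22 (SE 0.29, adjusted p = 0.0106). The replicates of BMP4 lay far apart in both groups. Its call was lost without control replicate 2 (log2 fold change -1.01, adjusted p = 0.0929), without CASP8AP2 siRNA replicate 1 (-0.70, adjusted p = 0.132) and with the spread taken from the 4 arrays alone (adjusted p = 0.0686).

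The largest fall of all was that of ENSG00000184348, which has no symbol here. It read 8.51 and 8.25 with control siRNA and 6.11 and 6.68 with CASP8AP2 siRNA, a log2 fold change of -1.98 (SE 0.20, adjusted p = 3.42e-05). Both siRNA arrays lay well below both controls.

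Genes of mitosis were lower with CASP8AP2 siRNA where they were called. Of the 7 mitosis and spindle genes with a symbol, 4 were called lower and 0 higher, with a median log2 fold change of -0.28. Promoters of such genes are known to carry the CHR element, through which they are held silent outside G2 phase and mitosis, often beside CCAAT boxes. The windows below run from 250 bases before to 50 bases after the RefSeq start and are shown for the 4 called genes, with the CHR letters in capitals (TTTGAA or TTCGAA, read on both strands). Sequences are from RefSeq in build GRCh38.p14.
ECT2, chr3:172750476-172750775, plus strand: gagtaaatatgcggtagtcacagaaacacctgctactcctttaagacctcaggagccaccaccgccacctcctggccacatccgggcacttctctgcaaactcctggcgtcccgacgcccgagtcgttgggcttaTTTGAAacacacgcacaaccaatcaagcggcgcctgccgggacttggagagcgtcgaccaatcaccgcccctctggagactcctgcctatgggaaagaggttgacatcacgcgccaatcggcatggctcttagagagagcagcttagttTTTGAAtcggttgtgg
NUF2, chr1:163321704-163322003, plus strand: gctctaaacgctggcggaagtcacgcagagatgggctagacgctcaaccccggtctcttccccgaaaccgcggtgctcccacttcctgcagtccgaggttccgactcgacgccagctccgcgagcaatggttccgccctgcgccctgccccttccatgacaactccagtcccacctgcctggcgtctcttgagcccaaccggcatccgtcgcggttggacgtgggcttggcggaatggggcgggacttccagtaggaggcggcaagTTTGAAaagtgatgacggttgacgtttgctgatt
KIF11, chr10:92592880-92593179, plus strand: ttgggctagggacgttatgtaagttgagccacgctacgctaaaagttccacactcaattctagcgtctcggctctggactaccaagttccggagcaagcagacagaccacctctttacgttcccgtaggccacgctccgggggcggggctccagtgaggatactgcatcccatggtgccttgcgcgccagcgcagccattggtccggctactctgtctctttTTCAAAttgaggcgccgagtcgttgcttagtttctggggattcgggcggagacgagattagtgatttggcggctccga
CDCA8, chr1:37692266-37692565, plus strand: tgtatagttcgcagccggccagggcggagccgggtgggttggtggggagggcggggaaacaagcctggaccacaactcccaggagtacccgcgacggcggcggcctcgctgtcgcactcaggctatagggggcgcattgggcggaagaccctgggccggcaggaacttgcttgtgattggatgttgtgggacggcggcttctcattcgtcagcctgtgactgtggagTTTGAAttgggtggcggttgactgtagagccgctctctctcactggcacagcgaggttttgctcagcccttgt
The CHR letters were present in a window of 6 of the 7 genes and in 7 of their 8 windows, beside 16.4% of all 35116 promoter windows. KIF23 and ESPL1, which were not called, and DKK1, which rose, carried these letters too. CCAAT on either strand was present in a window of 5 of the 7 genes, and in 34.6% of all windows. ECT2 has a further window, not shown, with CHR letters and no CCAAT. A match of letters is a description and shows no binding.

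ECT2 (ENSG00000114346), an exchange factor that starts cytokinesis, went from 9.78 and 9.73 to 8.88 and 9.12. NUF2 (ENSG00000143228), a kinetochore protein, went from 9.38 and 9.38 to 8.67 and 8.79. KIF11 (ENSG00000138160), the motor that separates the spindle poles, went from 9.60 and 9.57 to 8.97 and 9.16. In these genes the controls were close together and both siRNA arrays lay below them, replicate 1 lower than replicate 2. The log2 fold changes were -0.75 (SE 0.11, adjusted p = 0.000725), -0.66 (SE 0.11, adjusted p = 0.00165) and -0.52 (SE 0.13, adjusted p = 0.0120). CDCA8 (ENSG00000134690), a chromosomal passenger protein, went from 9.52 and 9.51 to 9.19 and 9.27, by -0.28 (adjusted p = 0.0428). KIF23, KIF2C and ESPL1 had log2 fold changes of -0.28, -0.23 and -0.07 and were not called.

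The calls of ECT2 and NUF2 held when any 1 array was left out. That of KIF11 was lost without control replicate 1 (log2 fold change -0.50, adjusted p = 0.0720), control replicate 2 (-0.54, adjusted p = 0.0530) or CASP8AP2 siRNA replicate 1 (-0.42, adjusted p = 0.120), and that of CDCA8 without any 1 of the 4 arrays (log2 fold change -0.32 to -0.24) and after quantile (-0.18) or cyclic loess normalization (-0.17). The RNA came from all cells of a culture, so fewer cells in a phase and less RNA per cell cannot be told apart for these or any other genes.

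Cyclins drive the steps of the cell cycle. Of 8 cyclin and CDK genes, 1 was called higher (CCNA1) and 2 lower, with a median log2 fold change of -0.12. CCNA2, the cyclin A of dividing somatic cells, went from 10.22 and 10.20 to 9.58 and 9.85, by -0.50 (adjusted p = 0.00997). The other cyclin A, CCNA1, had moved in the opposite direction. E2F2, an activator of S phase genes, went from 6.16 and 6.06 to 5.59 and 5.62, by -0.51 (adjusted p = 0.0123). The calls of CCNA2 and E2F2 were lost without control replicate 1 (-0.49, adjusted p = 0.0606, and -0.46, adjusted p = 0.0888) and without CASP8AP2 siRNA replicate 1 (-0.37, adjusted p = 0.122, and -0.49, adjusted p = 0.0797). Cyclin E was represented by CCNE2 with -0.40 (adjusted p = 0.104) and CCNE1 with 0.04 (adjusted p = 0.890). RBL1, the RB family member p107, had 0.16 (adjusted p = 0.313).

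In the replication licensing and initiation group 2 of 8 genes were called lower and 0 higher, with a median of -0.11. CDC7 (ENSG00000097046), the kinase that fires replication origins, went from 7.13 and 7.05 to 6.20 and 6.63, by -0.68 (SE 0.12, adjusted p = 0.00211). Both siRNA arrays lay below the controls, and the call held when any 1 array was left out. WDHD1, a replisome adaptor, had -0.28 (adjusted p = 0.0329), and this call was lost without any 1 of the 4 arrays (log2 fold change -0.29 to -0.26) and after quantile (-0.18) or cyclic loess normalization (-0.19). The helicase subunit MCM3 and the loader CDC6 had -0.02 and -0.25, and neither was called.

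In the DNA synthesis and nucleotide supply group 3 of 12 genes were called lower and 0 higher, with a median of -0.14. DNA2 (ENSG00000138346), a nuclease and helicase, went from 8.05 and 7.75 to 7.12 and 7.27, by -0.71 (SE 0.12, adjusted p = 0.00151). RFC4, a subunit of the clamp loader, had -0.50 (adjusted p = 0.00751). PRIM2, the large subunit of primase, had -0.40 (adjusted p = 0.00669). DNA2 kept its call without any 1 array. RFC4 lost it without control replicate 1 (-0.37, adjusted p = 0.0913) or CASP8AP2 siRNA replicate 1 (-0.40, adjusted p = 0.0907), and PRIM2 without control replicate 1 (-0.34, adjusted p = 0.0695). The ribonucleotide reductase subunits RRM1 and RRM2 had -0.14 (adjusted p = 0.344) and 0.04 (adjusted p = 0.849).

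Of 4 histone chaperone genes 2 were called lower and 0 higher, with a median of -0.27. RBBP7 and CHAF1B, which both take part in chromatin assembly on new DNA, each had -0.32 (adjusted p = 0.0123 and 0.0451). RBBP7 lost its call without control replicate 1 (-0.27), CASP8AP2 siRNA replicate 1 (-0.34) or CASP8AP2 siRNA replicate 2 (-0.30), CHAF1B without control replicate 1 (-0.28), control replicate 2 (-0.36) or CASP8AP2 siRNA replicate 1 (-0.24), and both after quantile or cyclic loess normalization. Canonical histone genes carried no symbol in the pairing used and were not analysed by name here. The replacement histone gene H2AFX (H2A.X) had 0.00 (adjusted p = 0.983). In the group of histone gene regulators CASP8AP2 itself was the only called gene of 6.

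p53 is the transcription factor that halts or kills damaged cells. Of 11 p53 target genes 1 was called higher and 2 lower, with a median of -0.14. The calls were small, at 0.39 for the apoptosome protein APAF1 (adjusted p = 0.0452), -0.39 for the BH3 protein BID (adjusted p = 0.0139) and -0.30 for the repair polymerase POLH (adjusted p = 0.0154). Those of BID and POLH were lost without control replicate 1, control replicate 2 or CASP8AP2 siRNA replicate 1 (BID -0.39, -0.38 and -0.25, POLH -0.28, -0.32 and -0.27), and that of APAF1 without any 1 of the 4 arrays (0.31 to 0.47) and after median centring (0.34). POLH also lost its call after quantile (-0.20) or cyclic loess normalization (-0.18), and BID after cyclic loess (-0.28). The death genes BBC3 (PUMA), PMAIP1 (NOXA) and BAX had 0.41 (adjusted p = 0.0679), 0.23 (adjusted p = 0.194) and -0.22 (adjusted p = 0.0965).

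Of 13 DNA damage checkpoint and repair genes 1 was called higher and 3 lower, with a median of -0.10. NBN (ENSG00000104320), a subunit of the complex that senses double-strand breaks, went from 9.16 and 9.10 to 8.55 and 8.55, by -0.58 (SE 0.10, adjusted p = 0.00161). The siRNA arrays of NBN were level with each other and below the controls, and the call held without any 1 array. RAD17, a checkpoint clamp loader, had -0.65 (adjusted p = 0.0134). RAD52 and RAD54L, both of recombination, had -0.46 (adjusted p = 0.0209) and 0.47 (adjusted p = 0.0361). RAD17 lost its call without control replicate 1 (-0.64), control replicate 2 (-0.66) or CASP8AP2 siRNA replicate 1 (-0.56), RAD52 without control replicate 2 (-0.37) or CASP8AP2 siRNA replicate 1 (-0.39), and RAD54L without the same arrays (0.34 and 0.37) and after median centring. BRCA2, also of recombination, had 0.04 (adjusted p = 0.844).

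Of 14 apoptosis genes 2 were called higher and 3 lower, with a median of 0.02, and BIRC3, BID and APAF1 are among them. BCL2L11, the BH3 protein BIM, had 0.51 (adjusted p = 0.0183), and its call was lost without any 1 of the 4 arrays (0.46 to 0.57). FADD, the adaptor of death receptors, had -0.29 (adjusted p = 0.0327) and was named after its value was seen. CASP8, the caspase after which CASP8AP2 was named, had -0.10 (adjusted p = 0.494). Among 7 NF-kB cytokine and survival genes BIRC3 was the only call. IL1A and IL8, cytokines under NF-kB control, had 0.50 (adjusted p = 0.0883) and -0.34 (adjusted p = 0.226). Among 3 interferon-stimulated genes TRIM22 was the only call, with -0.53 (adjusted p = 0.0305). That call was lost without control replicate 2 (-0.37) or CASP8AP2 siRNA replicate 1 (-0.29). STAT2 and IFNB1 had 0.14 (adjusted p = 0.347) and 0.01 (adjusted p = 0.945).

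Of 12 extracellular matrix genes 2 were called higher and 1 lower, with a median of -0.06, close to the shares over all genes with a symbol. COL6A3 (ENSG00000163359), a chain of type VI collagen, went from 7.13 and 7.36 to 8.29 and 8.38, by 1.09 (SE 0.11, adjusted p = 4.57e-05). The groups lay almost 1 log2 unit apart and the call held without any 1 array. HAS2, which makes hyaluronan, went from 7.30 and 7.11 to 7.76 and 8.08, by 0.71 (adjusted p = 0.00996), and lost its call without control replicate 2 (0.62) or CASP8AP2 siRNA replicate 2 (0.55). LOX, which cross-links collagen, had -0.39 (adjusted p = 0.0206) and lost its call without control replicate 1 (-0.35), control replicate 2 (-0.43) or CASP8AP2 siRNA replicate 1 (-0.29) and after quantile (-0.30) or cyclic loess normalization (-0.26). LOX was also the only call among 4 hypoxia genes.

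Of 10 genes of ATF4 and unfolded protein stress 3 were called higher and 0 lower, with a median of 0.06. ASNS, asparagine synthetase, had 0.52 (adjusted p = 0.00484). CEBPB, a transcription factor, had 0.48 (adjusted p = 0.00503), and SLC7A11, the cystine transporter, had 0.35 (adjusted p = 0.0470). The chaperone HSPA5 (BiP) had -0.24 (adjusted p = 0.0887). Without CASP8AP2 siRNA replicate 1 all 3 calls were lost (0.40, 0.41 and 0.30). Those of CEBPB (0.41) and SLC7A11 (0.41) were also lost without control replicate 1, and that of SLC7A11 without control replicate 2 (0.29) or CASP8AP2 siRNA replicate 2 (0.40) and after median centring.

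Of 9 retinoid genes 2 were called higher and 0 lower, with a median of 0.28. DHRS3, which turns retinal back into retinol, went from 5.03 and 5.39 to 5.90 and 5.97, by 0.72 (SE 0.13, adjusted p = 0.00180). RARA, a retinoic acid receptor, had 0.28 (adjusted p = 0.0336), and its call was lost without control replicate 1 (0.20), CASP8AP2 siRNA replicate 1 (0.30) or CASP8AP2 siRNA replicate 2 (0.26) and after median centring. Among 5 complement genes CD55, which shields cells from complement, was the only call, with 0.45 (adjusted p = 0.00443). Without control replicate 2 it was 0.36 (adjusted p = 0.0546).

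**Figure D2:**
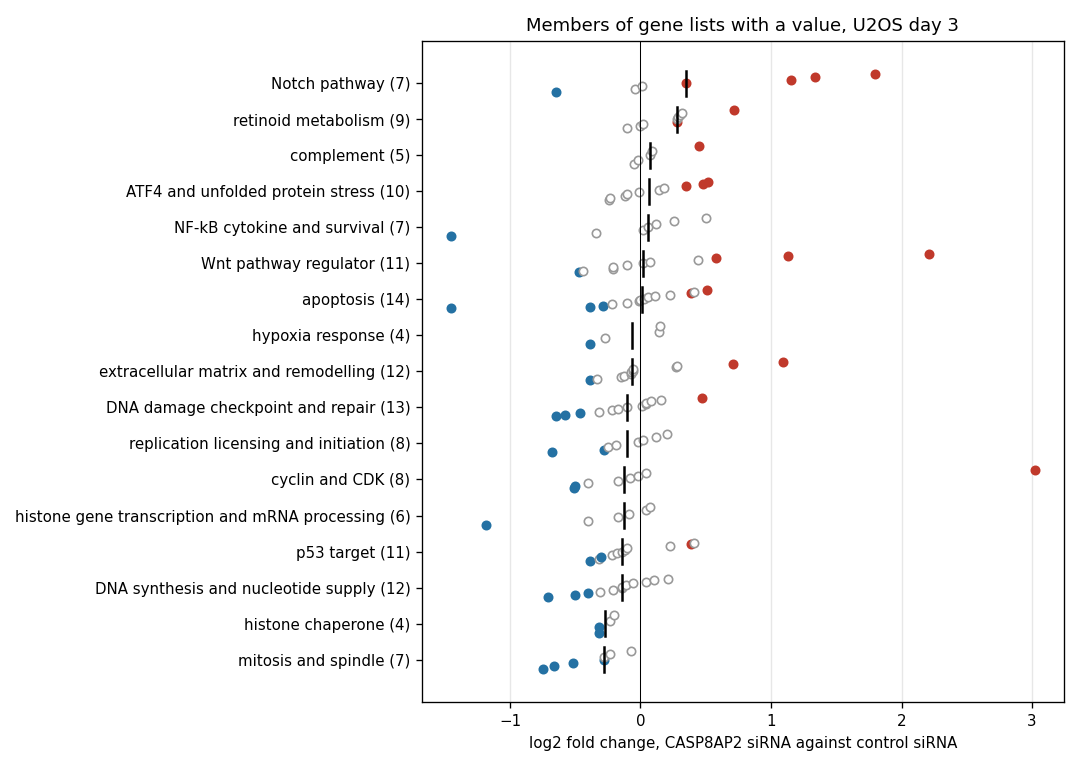
Log2 fold changes of CASP8AP2 siRNA against control siRNA in U2OS cells on day 3 (horizontal axis) for the genes of each group with at least 4 genes that carry a symbol, the number in brackets. Each point is 1 gene, filled where it was called, and each vertical line is the median of the group, which runs from -0.28 for mitosis and spindle to 0.35 for the Notch pathway.

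Markers of blood and vessel cells were read because DLL4, ANGPT2 and PGF are known from vessels. Of 4 such markers 2 were called higher. VWF, von Willebrand factor of endothelial cells, went from 3.40 and 3.53 to 4.36 and 4.04, by 0.73 (adjusted p = 0.00207). CD14, a monocyte receptor, had 0.42 (adjusted p = 0.0368), and that call was lost without any 1 of the 4 arrays (0.37 to 0.47) and after quantile, cyclic loess or median scaling (0.36 to 0.37). The endothelial cadherin CDH5 stood at 3.98 to 4.20 on the 4 arrays and had 0.12 (adjusted p = 0.483), and CD3E of T cells had 0.00. Over these 4 markers every value lay between 3.22 and 4.36, near the bottom of the scale.

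The same siRNA in the same line on days 1 and 2 gave a comparison on separate arrays, 3 per group, which were taken as normalized apart from day 3 because their array means lie higher. Only effects against control of the same day were set side by side, and no level or effect was tested between those days and day 3. On day 2, 5492 genes were called (24.9%), 2600 higher and 2892 lower, or 3238 and 2102 after cyclic loess normalization, and on day 1, 1295 (5.87%). A log2 fold change of at least 1 was reached by 313 called genes on day 2 (1.42%) and 36 on day 1 (0.163%). Of the 197 large rises of day 3, 179 (90.9%) were called higher on day 2, beside 11.8% of all genes. The 179 made up 6.88% of the 2600 genes higher on that day. On day 1, 64 of the 197 (32.5%) were called higher, beside 2.86% of all genes, and made up 10.1% of the 631 genes higher then. Of the 141 large falls, 96 (68.1%) were called lower on day 2, beside 13.1% of all genes, and 2 were called higher. The 96 made up 3.32% of the 2892 genes lower on that day. On day 1, 46 of the 141 (32.6%) were called lower, beside 3.01% of all genes, and 1 was called higher. The 46 made up 6.93% of the 664 genes lower then.

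CCNA1 read 4.04, 3.89 and 3.60 with control siRNA and 3.85, 3.82 and 3.82 with CASP8AP2 siRNA on day 1. On day 2 it read 3.83, 4.11 and 3.88 against 6.37, 5.76 and 6.08. The arrays overlapped on day 1 and were far apart on day 2, with log2 fold changes of -0.01 (adjusted p = 0.985) and 2.13 (adjusted p = 4.39e-10). DKK1 had a log2 fold change of 0.62 on the first of these days (adjusted p = 0.00107) and 2.34 on the second (adjusted p = 3.78e-12). DLL4 had 0.17 (adjusted p = 0.541) and 1.28 (adjusted p = 5.21e-08). IL13RA2 had 1.14 on day 1 (adjusted p = 2.14e-06), then 1.79, the largest day 1 effect among the 10 rises. SPINK1 had only 0.31 on day 2 (adjusted p = 0.0258).

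Among the falls, the log2 fold change of PCDHB5 was -0.74 on day 1 (adjusted p = 0.000574) against -1.28 on day 2 (adjusted p = 9.95e-08). CAV1 read 12.03, 12.07 and 11.98 with control siRNA and 11.73, 11.71 and 11.78 with CASP8AP2 siRNA on day 2. These groups did not overlap, with a log2 fold change of -0.28 (adjusted p = 0.00102) beside -1.33 on day 3. BIRC3 had -0.38 on day 2 (adjusted p = 0.00244) beside -1.45 on day 3. GPRASP2 and BMP4 had -0.24 and -0.21 on day 2 and were not called.

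**Figure D3:**
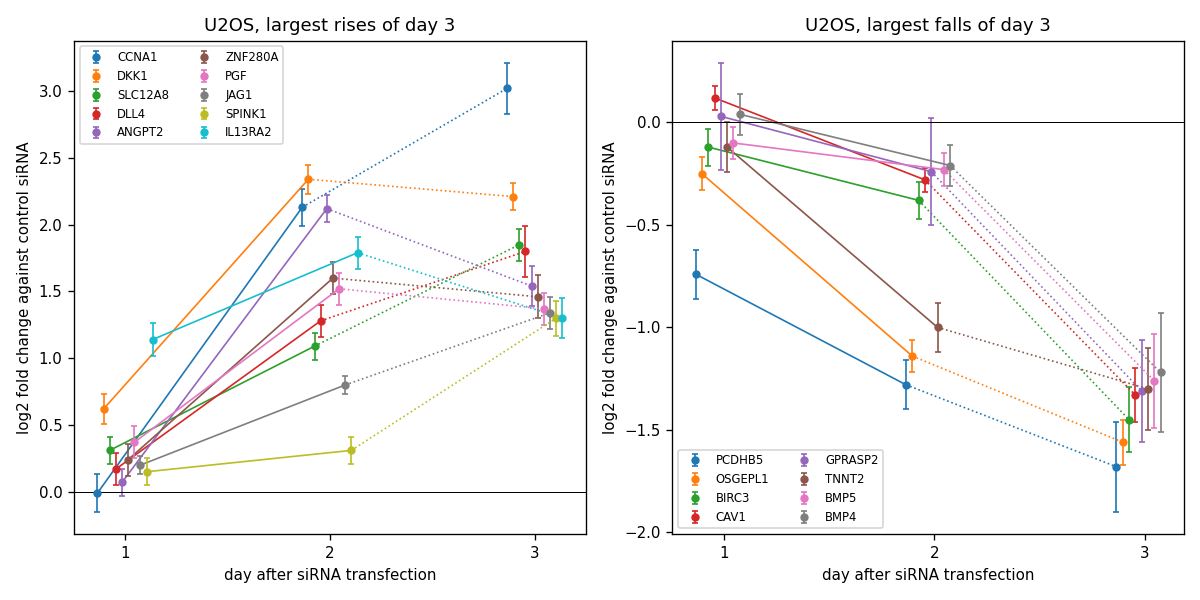
Log2 fold changes of CASP8AP2 siRNA against control siRNA in U2OS cells (vertical axes) on days 1, 2 and 3 (horizontal axes) for the 10 largest rises (left) and for the largest falls (right) of day 3, with bars for the standard error. Dotted lines join days 2 and 3, whose arrays were taken as normalized apart, and CCNA1 goes from -0.01 to 2.13 and 3.02.

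All 7 mitosis and spindle genes were called lower on day 2, beside 13.1% of all genes, and 5 of 7 on day 1, beside 3.01%. On day 2, 4 of 4 histone chaperone genes were called lower too and 0 higher. DNA synthesis genes had 7 of 12 lower and 1 higher, and cyclin and CDK genes 5 of 8 lower and 2 higher. On day 1, 0, 1 and 1 genes of these groups were called lower and 0 higher in each. Shares over genes with a symbol alone are not given for these days. On day 3 that share was larger, with 24.2% called beside 18.9% of all genes. ECT2 and NUF2 had -0.53 (adjusted p = 5.20e-07) and -0.70 (adjusted p = 1.51e-09) on day 2. CASP8AP2 itself had -1.30 on day 1 (adjusted p = 1.59e-08) against -1.73 a day later (adjusted p = 2.01e-11). Of the genes of ATF4 and unfolded protein stress 6 of 10 were called higher on each of the earlier days, where 11.8% of all genes were on day 2 and 2.86% on day 1, and 3 on day 3. ASNS had 0.53 on day 1 (adjusted p = 8.33e-05) against 1.00 a day later (adjusted p = 1.85e-09). Among NF-kB genes IL1A had 1.56 on day 2 (adjusted p = 7.18e-08).

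Called genes with opposite signs on days 2 and 3 were few among those with a symbol, and these 5 were named after their values were seen. All were higher on day 2 and lower on day 3. TRIM22 had 0.43 on day 2 (adjusted p = 7.66e-05) and -0.53 on day 3. MMD had 0.43 (adjusted p = 0.000237) and -0.47 (adjusted p = 0.0466). The peptide trimming enzyme ERAP1 had 0.16 (adjusted p = 0.0431) and -0.63 (adjusted p = 0.00233). The lysosomal enzyme GLB1 had 0.26 and -0.32, and the adaptor subunit AP3S1 had 0.22 and -0.30.

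The effect of CASP8AP2 siRNA in U2OS cells was then tested against its effect in hTERT-RPE1 cells on the same day, as the difference of the log2 fold changes. This difference was called for 2107 genes (9.55%), 893 with the U2OS effect higher (4.05%) and 1214 with it lower (5.50%), and the split moved from 42.4% to 32.0% higher after median centring. Fewer were called without CASP8AP2 siRNA replicate 1 (919), control replicate 1 (1102) or control replicate 2 (1118) of U2OS or CASP8AP2 siRNA replicate 2 of hTERT-RPE1 (950). Against their own controls 1358 genes (6.15%) were called in hTERT-RPE1 cells. The targeted transcript itself fell in both lines, by 1.18 and 0.77 on the log2 scale, a difference of -0.41 (SE 0.15, adjusted p = 0.113). Of the 197 large rises in U2OS cells 67 (34.0%) were called higher in hTERT-RPE1 cells, beside 3.62% of all genes, and 5 were called lower. The 67 made up 8.40% of the 798 genes called higher there. Of the 141 large falls 14 (9.93%) were called lower there, beside 2.54% of all genes, and 2 were called higher. The 14 made up 2.50% of the 560 genes called lower there. The difference itself was called for 136 of the large rises and 109 of the large falls. These genes were chosen for their change on the same U2OS arrays, which by itself raises these counts.

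CCNA1 rose in both lines. In hTERT-RPE1 cells it read 4.24 and 3.97 with control siRNA and 7.64 and 7.55 with CASP8AP2 siRNA, by 3.49 (adjusted p = 1.72e-07). The values of the lines lay close together under each siRNA, and the difference of effects was -0.47 (SE 0.27, adjusted p = 0.292). JAG1 had 1.34 in U2OS and 1.26 in hTERT-RPE1 cells, a difference of 0.07 (SE 0.17, adjusted p = 0.837). PGF and COL6A3 had differences of 0.14 (SE 0.17, adjusted p = 0.636) and -0.12 (adjusted p = 0.668). A p of this size does not show equal effects.

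DKK1 and DLL4 differed between the lines. DKK1 read 9.91 and 9.79 with control siRNA and 9.94 and 9.84 with CASP8AP2 siRNA in hTERT-RPE1 cells. It was thus high under both siRNAs there, and the difference of effects was 2.17 (SE 0.14, adjusted p = 3.87e-06). DLL4 read 3.73 and 3.72 against 3.78 and 3.94 in hTERT-RPE1 cells, low under both siRNAs, and the difference was 1.66 (SE 0.27, adjusted p = 0.00301). DHRS3 rose by 0.72 in U2OS cells and fell by 1.59 on the log2 scale in hTERT-RPE1 cells, from 10.16 and 10.37 to 8.54 and 8.81. This gave the largest difference upward among genes with a symbol, 2.32 (SE 0.18, adjusted p = 1.60e-05). NKD1 and KREMEN2 also differed, by 1.11 (adjusted p = 0.0119) and 0.63 (adjusted p = 0.0242). The call of KREMEN2 was lost without any 1 of 5 arrays (0.47 to 0.65), among them CASP8AP2 siRNA replicate 1 of U2OS (0.57). The call of NKD1 was lost without CASP8AP2 siRNA replicate 1 of U2OS (1.01) or CASP8AP2 siRNA replicate 2 of hTERT-RPE1 (0.98).

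Genes that rose in hTERT-RPE1 and less or not in U2OS cells gave large differences downward. C3, the central complement component, read 5.66 and 5.99 against 5.41 and 6.15 in U2OS cells and 4.80 and 5.03 against 7.29 and 7.47 in hTERT-RPE1 cells. The U2OS arrays overlapped and those of hTERT-RPE1 lay far apart, a difference of -2.51 (SE 0.41, adjusted p = 0.00301). KCNJ15, a potassium channel, went from 3.65 and 3.62 to 4.03 and 4.21 in U2OS and from 3.84 and 3.88 to 6.16 and 6.10 in hTERT-RPE1 cells, a difference of -1.79 (SE 0.14, adjusted p = 1.81e-05). It rose in both lines, by 0.48 and 2.27. HAS2 likewise had 0.71 and 2.08, a difference of -1.37 (adjusted p = 0.00439).

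On day 3 the p53 target PMAIP1 had 0.23 in U2OS (adjusted p = 0.194) and 1.08 (adjusted p = 8.70e-05) in hTERT-RPE1 cells, a difference of -0.84 (adjusted p = 0.00809). It was called higher in U2OS cells on days 1 and 2. CASP8 had -0.10 and 0.67 (adjusted p = 0.000599), a difference of -0.77 (adjusted p = 0.00346). Of the 11 p53 targets 4 differed between the lines, each with the U2OS effect lower, beside 5.50% of all genes. That share is over genes with or without a symbol. The difference of BID, among these targets, was -0.54. It lost its call without any 1 array except CASP8AP2 siRNA replicate 2 of U2OS (-0.60 to -0.41). It also did so after quantile or cyclic loess normalization (-0.44 each) and with the compared arrays alone. Of the 7 mitosis genes 3 differed, each with the U2OS effect lower, beside the same 5.50%. ECT2 read 9.51 and 9.50 against 9.62 and 9.63 in hTERT-RPE1 cells, slightly higher with the siRNA, and the difference was -0.87 (adjusted p = 0.00612). NUF2 and KIF11 had differences of -0.66 (adjusted p = 0.0225) and -0.69 (adjusted p = 0.0289). The call of NUF2 was lost without control replicate 1 or 2 or CASP8AP2 siRNA replicate 1 of U2OS, or control replicate 2 or CASP8AP2 siRNA replicate 1 of hTERT-RPE1 (-0.66 to -0.58). That of KIF11 was lost without the same U2OS arrays, or control replicate 1 or either CASP8AP2 siRNA replicate of hTERT-RPE1 (-0.76 to -0.59). It was also lost after quantile (-0.56) or cyclic loess normalization (-0.57).

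Only 8 genes with a symbol were called in both lines with opposite signs, and they were named after their values were seen. Besides DHRS3 they were ASNS, RARA, POLH, PTGS2, ALDH3A2, MORC4 and GZMM. ASNS had 0.52 in U2OS and -0.55 (adjusted p = 0.00780) in hTERT-RPE1 cells, a difference of 1.07 (adjusted p = 0.00129). PTGS2, which encodes the prostaglandin synthase COX-2, had 0.37 (adjusted p = 0.0475) and -0.61 (adjusted p = 0.00896). POLH had -0.30 and 0.41 (adjusted p = 0.00662).

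**Figure D4:**
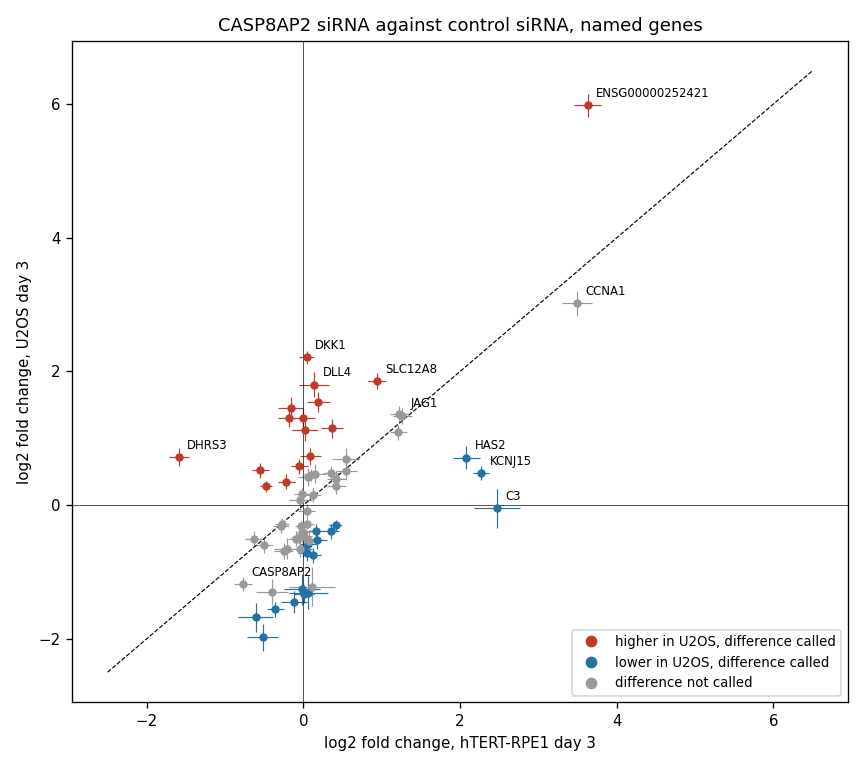
Log2 fold changes of CASP8AP2 siRNA against control siRNA on day 3 in hTERT-RPE1 cells (horizontal axis) and U2OS cells (vertical axis) for the named genes, with bars for the standard error and a dashed line of equal effect. Colours mark genes whose difference between the lines was called, and CCNA1 and JAG1 lie near the dashed line while DKK1, DLL4 and C3 lie away from it.

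NPAT and HINFP siRNA were given to U2OS cells on the same day. Their effects share the 2 control arrays with that of CASP8AP2 siRNA, so the effects are set side by side, and the siRNAs were tested against each other on their own arrays. Against control, 1794 genes (8.13%) were called with NPAT siRNA and 2081 (9.43%) with HINFP siRNA. Between CASP8AP2 and NPAT siRNA 773 genes differed (3.50%), 348 higher (1.58%) and 425 lower (1.93%) with CASP8AP2 siRNA. Between CASP8AP2 and HINFP siRNA 1235 differed (5.60%), 538 higher (2.44%) and 697 lower (3.16%). Of the 197 large rises 104 differed from NPAT siRNA and 94 from HINFP siRNA, and of the 141 large falls 56 and 62. The large rises and falls were chosen on the same CASP8AP2 siRNA arrays, which by itself raises their shares. Without CASP8AP2 siRNA replicate 1 these counts over all genes were 200 and 302, without a replicate of NPAT siRNA 319 and 238, and without a replicate of HINFP siRNA 577 and 430.

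CCNA1, IL13RA2 and SPINK1 were higher with CASP8AP2 siRNA than with either other siRNA. CCNA1 read 5.33 and 4.95 with NPAT siRNA and 4.96 and 5.16 with HINFP siRNA, between control and CASP8AP2 siRNA. Against control it rose by 1.00 with NPAT siRNA (adjusted p = 0.00690) and by 0.92 with HINFP siRNA (adjusted p = 0.00795). With CASP8AP2 siRNA CCNA1 exceeded these siRNAs by 2.03 (SE 0.19, adjusted p = 7.21e-05) and 2.10 (SE 0.19, adjusted p = 6.43e-05). IL13RA2 read 5.46 and 5.23 with NPAT siRNA and 5.34 and 5.51 with HINFP siRNA, all below the control arrays, and differences were 1.71 (adjusted p = 3.69e-05) and 1.63 (adjusted p = 6.43e-05). SPINK1 read 4.14 and 3.98 with NPAT siRNA and 4.34 and 4.52 with HINFP siRNA, and differences were 1.55 (adjusted p = 3.61e-05) and 1.19 (adjusted p = 0.000261). JAG1 differed by 0.69 (adjusted p = 0.00846) and 0.79 (adjusted p = 0.00270). Against control JAG1 also rose with NPAT siRNA (0.65, adjusted p = 0.00629) and HINFP siRNA (0.55, adjusted p = 0.0122).

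Like CCNA1 and JAG1, the genes DKK1, DLL4 and HEY1 rose against control with each of the 3 siRNAs. COL6A3, NKD1 and KREMEN2 were also called higher with each. DKK1 read 6.48 and 6.60 with NPAT siRNA and 7.00 and 7.13 with HINFP siRNA, and CASP8AP2 siRNA differed from them by 0.39 (SE 0.10, an adjusted p just below the threshold) and -0.13 (SE 0.10, adjusted p = 0.539). DLL4 read 5.13 and 5.14 with NPAT siRNA and 5.44 and 6.18 with HINFP siRNA, and differences were 0.27 (SE 0.19, adjusted p = 0.535) and -0.40 (SE 0.19, adjusted p = 0.263). HEY1 had effects against control of 1.30 with NPAT siRNA and 1.16 with HINFP siRNA, and differences of -0.15 (adjusted p = 0.672) and -0.02 (adjusted p = 0.969).

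Among the falls, BIRC3 read 5.74 and 6.10 with NPAT siRNA and 6.63 and 6.48 with HINFP siRNA. The NPAT siRNA arrays lay at the level of the CASP8AP2 siRNA arrays, a difference of 0.01 (SE 0.16, adjusted p = 0.982), and that from HINFP siRNA was -0.62 (adjusted p = 0.0379). TNNT2 read 6.87 and 6.71 with NPAT siRNA, a difference of -1.39 (adjusted p = 0.00198). CAV1 was lower with CASP8AP2 siRNA by -0.60 (adjusted p = 0.0203) and -0.61 (adjusted p = 0.0154). With NPAT and HINFP siRNA, ECT2 had effects against control of -0.54 (adjusted p = 0.0122) and -0.43 (adjusted p = 0.0308). NUF2 had -0.43 (adjusted p = 0.0338) and -0.57 (adjusted p = 0.00679), and NBN -0.43 (adjusted p = 0.0199) and -0.49 (adjusted p = 0.00738). KIF11 was called with neither. None of the 7 mitosis genes differed by the test between CASP8AP2 siRNA and either other siRNA, which does not show equal effects.

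The largest differences downward from HINFP siRNA among genes with a symbol were those of CD22, CASP8AP2 itself (-1.27, adjusted p = 5.39e-05) and GULP1. CD22, a lectin of B cells, read 7.45 and 7.45 with control, 8.28 and 8.02 with CASP8AP2 siRNA and 9.35 and 9.70 with HINFP siRNA, a difference of -1.38 (adjusted p = 0.000693). It rose with both siRNAs and further with HINFP siRNA. Its rise of 0.69 with CASP8AP2 siRNA (adjusted p = 0.0137) lost its call without control replicate 1 (0.69), control replicate 2 (0.70) or CASP8AP2 siRNA replicate 1 (0.56). GULP1, an adaptor of engulfment, read 7.53 and 7.50 with control, 6.76 and 7.08 with CASP8AP2 siRNA and 7.95 and 8.20 with HINFP siRNA, a difference of -1.15 (adjusted p = 0.000122). It fell with CASP8AP2 siRNA and rose with HINFP siRNA, by 0.56 (adjusted p = 0.00759). With the spread of the 4 arrays alone the GULP1 difference had an adjusted p of 0.0521.

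**Figure D5:**
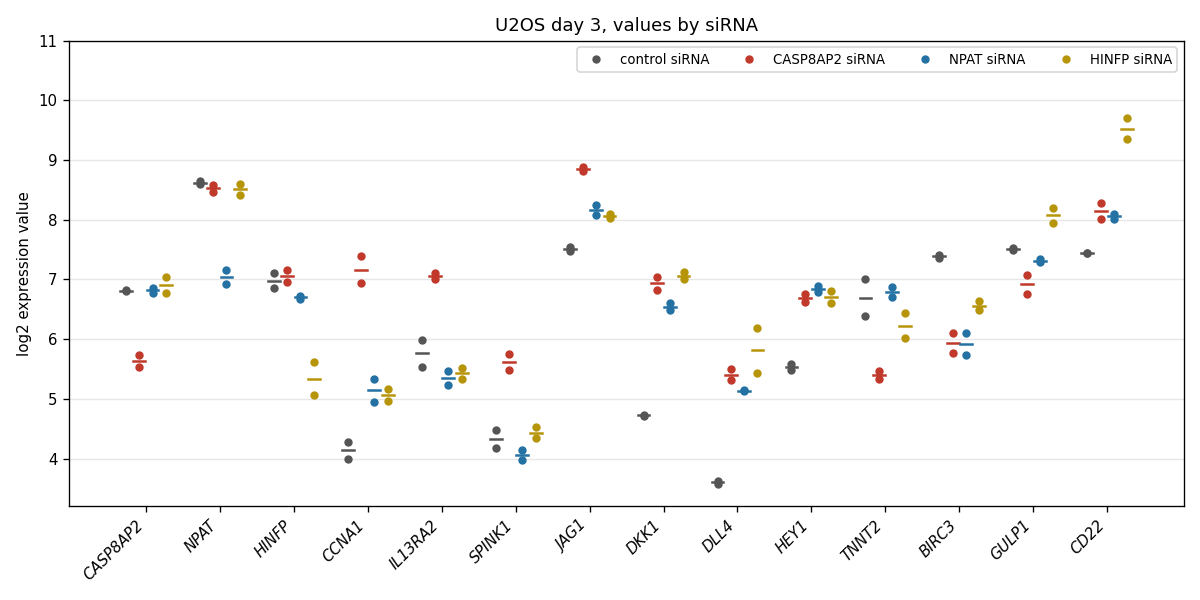
Log2 expression values (vertical axis) of the genes named on the horizontal axis in U2OS cells on day 3 with control, CASP8AP2, NPAT and HINFP siRNA. Each point is 1 array and each short line the mean of a group of 2. CCNA1, IL13RA2 and SPINK1 stand highest with CASP8AP2 siRNA. CCNA1, JAG1, DKK1, DLL4 and HEY1 stand above control with all 3.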

How the data were processed

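Total RNA of U2OS and hTERT-RPE1 cells was measured on Affymetrix Human WT 1.1 arrays. The authors processed the arrays with affy and a custom probe grouping with 1 probe set per Ensembl gene, and the deposited table holds 1 log2 value per gene and array. RMA is named in the submitters' processing notes, and the version and genome build of the grouping are not given in the sources used here. Groups follow the labels. The arrays of day 3 and those of days 1 and 2 had means of 5.85 to 5.88 and 6.00 to 6.05, were taken as normalized separately, and were fitted apart. Group means were fitted to the deposited values by limma 3.58.1 under R 4.3.3 (functions lmFit and eBayes, two-sided tests), with 8 residual degrees of freedom on day 3 and 16 on days 1 and 2. The threshold was an adjusted p of 0.05, and no gene was filtered out. The number of arrays limits the precision, and the median SE of a log2 fold change was 0.11.

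Symbols came from a list of the study's siRNA screen that pairs them with Ensembl identifiers, used here in part, and are printed as written there. The genes named were CASP8AP2, NPAT and HINFP, the 10 called genes with a symbol and arrays that did not overlap that rose most and the 10 that fell most, up to 4 called genes per gene list, the 3 largest differences each way from hTERT-RPE1, NPAT siRNA and HINFP siRNA, and the largest rise and fall without a symbol. Some genes are not reported here, and they were left out of the genes named and of the gene lists after this rule was applied. Other list members, and genes with opposite signs, were named after their values were seen. The gene lists and the comparison itself were chosen with earlier results of these data known. The alternatives were quantile and cyclic loess normalization, median centring, a filter on a mean of at least 5, a trended robust eBayes, a fit to the compared arrays alone or to all 40, a minimum log2 fold change of 1, a replicate block, and leaving out each array. Promoter windows are from RefSeq (GRCh38.p14).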

Additional observations from a re-analysis of the deposited data

Results flagged for a closer look

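The difference between the effects of CASP8AP2 siRNA in U2OS and hTERT-RPE1 cells on day 3, tested as an interaction term in limma, was called for 34 of the 68 named genes, 18 with the U2OS effect lower and 16 with it higher. Over all genes it was called for 9.55%, and the named genes were chosen in part for this difference and for the size of their change. Among the ligands, antagonists and receptors that rose in U2OS cells the difference was 2.17 for DKK1, 1.66 for DLL4, 1.35 for ANGPT2, 1.29 for IL13RA2, 1.11 for NKD1 and 0.63 for KREMEN2. The enzyme, transporter and other rises differed by 2.32 for DHRS3, 1.62 for ZNF280A, 1.49 for SPINK1, 1.07 for ASNS, 0.92 for SLC12A8, 0.79 for HEY1, 0.76 for RARA, 0.64 for VWF and 0.57 for SLC7A11. The unnamed gene ENSG00000252421 rose in both lines, by 5.98 and 3.63, a difference of 2.35 (adjusted p = 9.84e-05).

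Among the falls in U2OS cells the difference was -1.37 for GPRASP2, -1.34 for CAV1, -1.33 for BIRC3, -1.24 for BMP5, -1.20 for OSGEPL1 and -1.07 for PCDHB5. ENSG00000184348 had -1.46 (adjusted p = 0.00704). In genes of division and DNA it was -0.87 for ECT2, -0.76 for DNA2, -0.71 for POLH, -0.69 for KIF11, -0.66 for NUF2, -0.64 for NBN and -0.54 for BID. LOX had -0.74. C3, which rose in hTERT-RPE1 cells and was not called in U2OS cells, had -2.51. KCNJ15 and HAS2, which rose in both lines and further in hTERT-RPE1 cells, had -1.79 and -1.37.

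Leaving out single arrays ended the calls of 13 of these differences at least once, those of PCDHB5, GPRASP2, BMP5, KIF11, BID, KREMEN2, VWF, NUF2, HEY1, SLC7A11, DNA2, NKD1 and NBN, always in the same direction. Their causes were not tested.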

How the results depend on the processing

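Of the 62 named genes called in U2OS cells on day 3, 33 were called in the same direction under each alternative that gave a value and 29 lost the call at least once. The minimum log2 fold change of 1 was applied only to counts of genes and does not enter these numbers. Several of the 33 do not reach it, CDC7 (-0.68) and NBN (-0.58) among them. The filter on a mean of at least 5 left no value for DLL4, ANGPT2, SPINK1, IL13RA2, GPRASP2, VWF, KCNJ15 and CD14. With the spread of the compared arrays alone the calls of APAF1, BID, BMP4, CDCA8, CHAF1B, LOX, POLH, RAD54L, RARA, RBBP7, RFC4, SLC7A11, TRIM22, WDHD1 and WNT5A were lost (adjusted p from 0.0568 to 0.136), and 2455 genes were called against control, 1041 for the difference from hTERT-RPE1 cells, 88 against NPAT siRNA, 71 against HINFP siRNA and 612 on day 1. With all 40 arrays in 1 fit there were 3742, 1811 and 2558 for the difference from hTERT-RPE1, NPAT and HINFP siRNA. With a log2 change of at least 1 required there were 338 against control, 434 for the difference from hTERT-RPE1, 86 against NPAT siRNA, 97 against HINFP siRNA, 313 on day 2 and 36 on day 1. Leaving out 1 array gave 1792 to 4165 genes against control, 919 to 2755 for the difference from hTERT-RPE1, 200 to 1096 against NPAT siRNA, 302 to 1528 against HINFP siRNA, 4658 to 4808 on day 2 and 883 to 1071 on day 1. Where an arm was left with 1 array, that array was assumed to vary like those of the other groups. The direction turned in HINFP, which had -0.04 when control replicate 2 was left out, -0.03 when replicate 2 of CASP8AP2 siRNA was, and 0.19 at the other end. It turned in C3 too, which had 0.12 and 0.33 when control replicate 2 or replicate 1 of CASP8AP2 siRNA was left out, and -0.42 at the other end. Neither gene was called in any of these. In every other named gene the direction was kept. The causes of these changes were not tested.

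Replicate numbers are shared between groups on day 3, but the labels do not tie equal numbers together, and the deviations of same-numbered arrays correlated across genes with r = 0.14 in U2OS cells. With the replicate number as a block 4184 genes were called against control, 2055 for the difference from hTERT-RPE1, 756 against NPAT siRNA, 1275 against HINFP siRNA, 4902 on day 2 and 925 on day 1. The block ended the calls of CHAF1B, WDHD1, CDCA8, SLC7A11 and CD14 against control (adjusted p from 0.0501 to 0.0693) and of the difference from hTERT-RPE1 in BMP5 (0.0524), SLC7A11 (0.0624) and VWF (0.0656), and no other call of a named gene.

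A signal near the bottom of the scale understates a fold change, which touches CCNA1, DLL4, ANGPT2 and the other rises from low control levels. The duplicates of a day 3 group were transfected at the same time.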
